A study of Drosophila melanogaster with 3 samples.

Results

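The neighbouring homeobox genes inv (invected, FBgn0001269) and en (engrailed, FBgn0000577) were examined in a chromatin immunoprecipitation profile of Nf-YB, with every Nf-YB peak summit inside, between or within 20 kb of the 2 genes taken as a member. The locus was chosen by its measured peak ranks: inv holds one of the strongest promoter peaks of the experiment. Ranks, signals and replicate matches are therefore given as descriptions and no test was run on them. The optimal list, which holds the peaks the authors found reproducible, had 6221 summits in all, and 14 of them lay at this locus. Profiling used 3 biological replicates of 1 group, embryos of pooled sex aged 0 to 24 h that stably express Nf-YB with a C-terminal GFP, and an antibody against GFP. The line is transgenic, so the tagged protein and not untagged Nf-YB was measured, and whole embryos mix cells that express en and inv with cells that do not.

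Nf-YB is the histone-fold B subunit of NF-Y, a trimer that recognises the CCAAT box. En and Inv are closely related homeodomain transcription factors made in the posterior compartment of each segment, where En maintains hh expression and represses ci. The 2 genes are expressed in much the same cells, share regulatory DNA spread over the region, and are a classic target of the Polycomb group, which acts through response elements near both genes that carry sites for factors such as Pho and the GAGA factor.

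In the dm6 assembly inv lies on the plus strand of chromosome arm 2R from 11474465 to 11509695 and en on the minus strand from 11524006 to 11528210. The genes are thus convergent, with their 3' ends facing each other across 14310 bp. Each gene has an outer and an inner start site: an outer TSS (transcription start site) of inv at 11474465 and an inner one at 11475708, and an outer TSS of en at 11528210 and an inner one at 11527883. The window with its flanks ran from 11454465 to 11548210, or 93746 bp, and no other gene had a TSS in it. Its neighbours are E(Pc), Enhancer of Polycomb, which ends 9194 bp before inv, and tou, a chromatin protein gene on the minus strand whose 3' end lies 49274 bp beyond en.

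Of the 14 summits, 9 were nearest to a TSS of inv and 5 nearest to a TSS of en. Those of inv were 4 summits upstream of the outer TSS, 1 in the 5' UTR and 4 in introns, and all 5 of en lay upstream of its outer TSS in intergenic sequence. None fell inside en or between the 2 genes. Numbered from the inv side, they are described below by their distance to the nearest TSS.

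**Figure D1:**
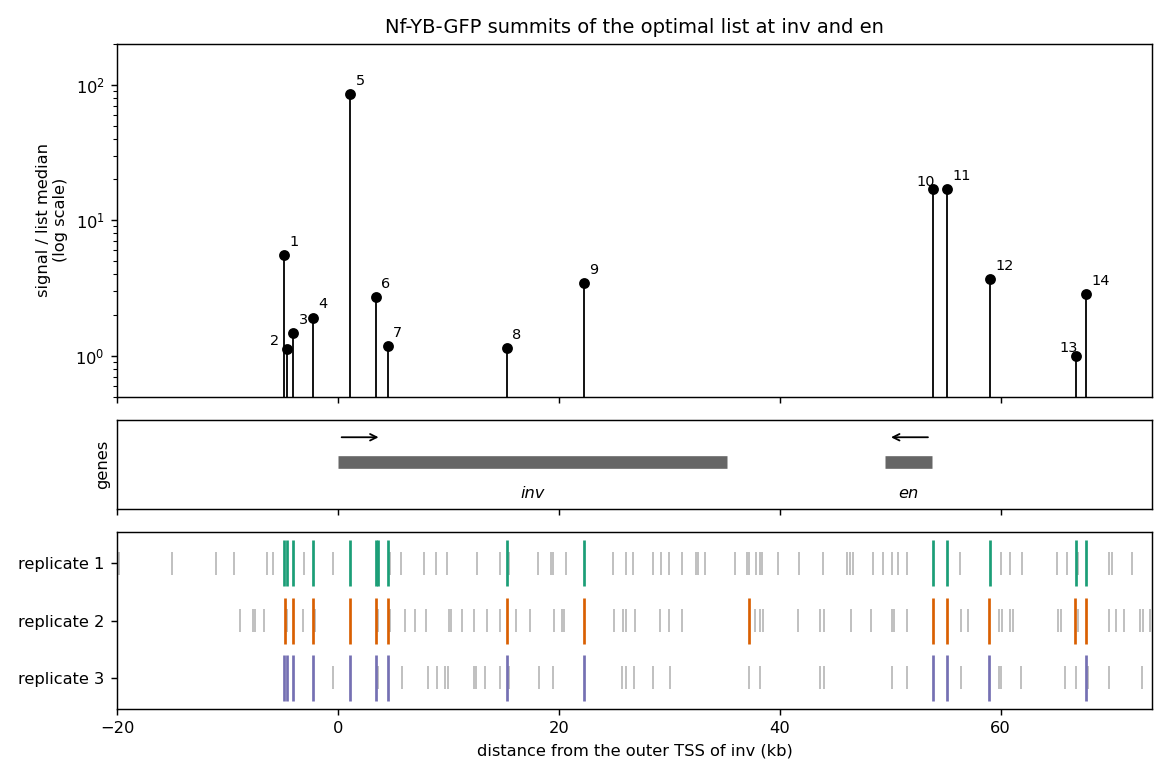
Distance from the outer TSS of inv in kb (x axis) of the 14 optimal summits, numbered from 1 to 14, with signal over the median of the optimal list on a log scale (top), the 2 genes with arrows at their start (middle), and all summits of the 3 replicate lists (bottom; coloured where the peak ranked within the 6221 highest of its replicate, grey below). The highest summit, 5, is at the inner TSS of inv, summits 10 and 11 are next at the 5' end of en, and no optimal summit lies between summits 9 and 10.

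The strongest summit of the locus, summit 5 at 11475583, lay 125 bp upstream of the inner TSS of inv. It was in the 5' UTR of the longer transcript, 1118 bp downstream of the outer TSS. Its signal was 85.0 times the median of the optimal list, at rank 13. In replicates 1, 2 and 3 the nearest summit was 8, 1 and 5 bp away and ranked 25, 28 and 11 of the 30000 peaks in each list. Relative to the median of each replicate's own list its signal was 276, 232 and 347, a mean of 285 ± 58.0 (SD, n = 3). It was the highest summit of the locus in every replicate. The peak ran from 11475092 to 11475993, 902 bp, and covered the inner TSS but not the outer one.

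The 2 summits next to en had almost the same signal. Summit 10, at 11528330, lay 120 bp upstream of the outer TSS of en, with a signal 16.9 times the list median and rank 216. Summit 11, at 11529648 and thus 1438 bp upstream, reached 17.1 times the median and rank 212. Summit 10 ranked 284, 240 and 167 in replicates 1, 2 and 3, and summit 11 ranked 226, 266 and 182. The order of the 2 thus turned round between replicates, with summit 11 ahead in replicate 1 and summit 10 ahead in replicates 2 and 3. Relative to the replicate medians the signal of summit 10 was 47.8, 52.7 and 70.7 in replicates 1, 2 and 3, and that of summit 11 was 60.6, 48.2 and 63.8. The mean signals relative to the replicate medians, 57.1 ± 12.1 for summit 10 and 57.5 ± 8.26 for summit 11 (SD, n = 3), differed by less than the spread between replicates. The peak of summit 10 ran from 11527706 to 11528694 and covered both start sites of en. At 989 bp it was the widest of the locus, and 3.09% of all optimal peaks were as wide or wider.

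In each replicate, and in the optimal list, the summit at inv ranked above both summits at en. The ranges over the replicates did not overlap, with ranks 11 to 28 at summit 5 and 167 to 284 at summits 10 and 11. Since the locus was chosen for the rank of inv, this order is a description only. Both genes thus carried a promoter summit, meaning one within 500 bp of a TSS, as did 21.6% of all protein-coding genes.

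Upstream of inv, 4 summits lay in the 9.19 kb stretch between E(Pc) and inv. Summit 1, 4850 bp upstream of the outer TSS, was the strongest of these, with signal 5.53 times the list median and rank 532, and it ranked 639, 603 and 429 in replicates 1, 2 and 3. Summit 2 lay only 201 bp from it in the same interval, from 11469407 to 11469952, and had ranks of 3148, 7284 and 2412 in replicates 1, 2 and 3. Summits 3 and 4, at 4056 and 2296 bp upstream, had ranks 1947 and 1466. Over the replicates summit 3 ranked 2022, 1681 and 2246, and summit 4 ranked 1345, 1440 and 1644. Summit 1 was the highest of the 4 in every replicate, with signals of 16.2, 16.2 and 23.5 times the median of replicates 1, 2 and 3.

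Inside the introns of inv, 4 summits lay 2204, 3279, 14066 and 21027 bp downstream of the inner TSS. The farthest, summit 9, was the strongest of them, with rank 791 and signal 3.45 times the list median, and its replicate ranks were 743, 799 and 944. Its signal was 13.2, 11.3 and 10.8 times the median of replicates 1, 2 and 3, so it varied little. Summit 6, at 2204 bp, had rank 977 and ranked 851, 848 and 1595 in replicates 1, 2 and 3. Summits 7 and 8 were weaker, at ranks 2497 and 2642, with replicate ranks of 2382 to 3298 and 2254 to 3412. Intron summits of inv were thus not ordered by closeness to the promoter.

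Farther upstream of en, summit 12 at 5258 bp had rank 751 and signal 3.71 times the list median. It ranked 628, 666 and 1372 in replicates 1, 2 and 3, with signals of 16.6, 14.5 and 7.79 times the median of each list. Summit 14, at 13971 bp, had rank 927 and ranked 864, 924 and 1292. Summit 13, 915 bp from it, was the weakest of the locus, with signal 0.995 times the list median, rank 3131 and replicate ranks of 2100, 2754 and 6446. All 3 of these ranked lower in replicate 3 than in the other replicates.

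**Figure D2:**
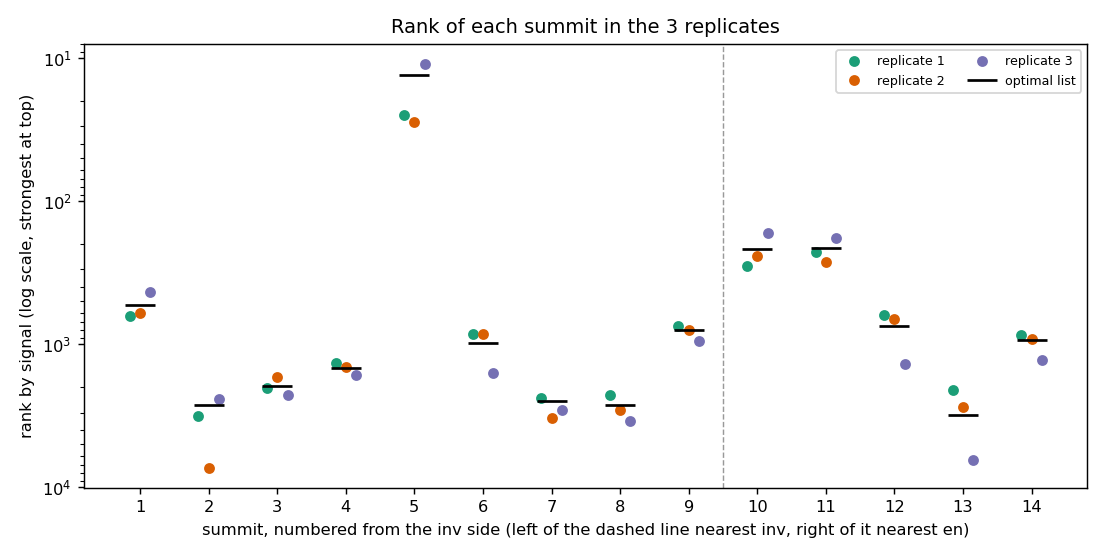
Rank by signal (y axis, log scale, strongest at the top) of each of the 14 summits in replicates 1, 2 and 3 (points) and in the optimal list (bars), numbered from the inv side; the dashed line parts the 9 nearest inv from the 5 nearest en. Summit 5 at the inv promoter is highest in every list, and summits 2 and 13 are the only ones with a replicate rank beyond 6221.

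All 14 summits had a replicate summit within 100 bp in all 3 replicate lists, against 85.9% of all optimal summits and 1224 of the 1244 highest. For the replicates one by one the share of all optimal summits was 95.1%, 93.6% and 94.8%. Among the 6221 highest peaks of each replicate, 12 of 14 were found in all 3, against 54.5% of all optimal summits. The exceptions were summit 2, at rank 7284 in replicate 2, and summit 13, at rank 6446 in replicate 3. The farthest replicate summit was 39 bp away, so none was near the 100 bp limit. The median distance between the optimal and the replicate summit was 3, 8.5 and 4.5 bp at the locus in replicates 1, 2 and 3, against 13, 18 and 10 bp over all matched optimal summits. The locus was chosen for its ranks, and neither the 12 of 14 nor these distances were set beside peaks of like rank. They thus do not set the locus apart from other strong peaks. Over the 14 summits, whose values share each replicate's library, the ranks of replicates 1 and 2 gave a Spearman's rho of 0.991. Replicate 3 was slightly less close, with rho of 0.916 to replicate 1 and 0.934 to replicate 2.

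The summits were mostly high in the list and mostly away from start sites. Their median rank was 952 against 3111 over the whole list, 8 of 14 were among the 1244 highest peaks, and 1 lay in the lower part of the list beyond rank 3111. Of the 14, 2 lay within 500 bp of a TSS, against 45.0% of all optimal summits, and 11 lay over 2 kb from a TSS, against 33.6%. The window holds TSSs of only 2 genes, which limits how many of its summits can lie near one. Peak widths ran from 118 to 989 bp with a median of 469. The wide peaks at both promoters were wide in each replicate too, at 825, 999 and 816 bp for summit 5 and 956, 974 and 899 bp for summit 10. None of the 14 had the width of 444 bp that 53.3% of all optimal peaks shared. The locus had 14.9 optimal summits per 100 kb, against 4.65 over the 6 arms, where genes, and with them promoters, differ in number from place to place.

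Cut into tiles of the same length as the window, the arms gave 1425 tiles with a median of 3 optimal summits. Of these tiles, 4.35% held 14 or more, and 0.842% held 8 or more of the 1244 highest peaks. The most in any tile was 35 summits, and 360 tiles held none. The locus was chosen for its peak ranks and its window is drawn around its genes, while the tiles lie on a fixed grid. These shares are therefore descriptions and do not measure how unusual the locus is.

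**Figure D3:**
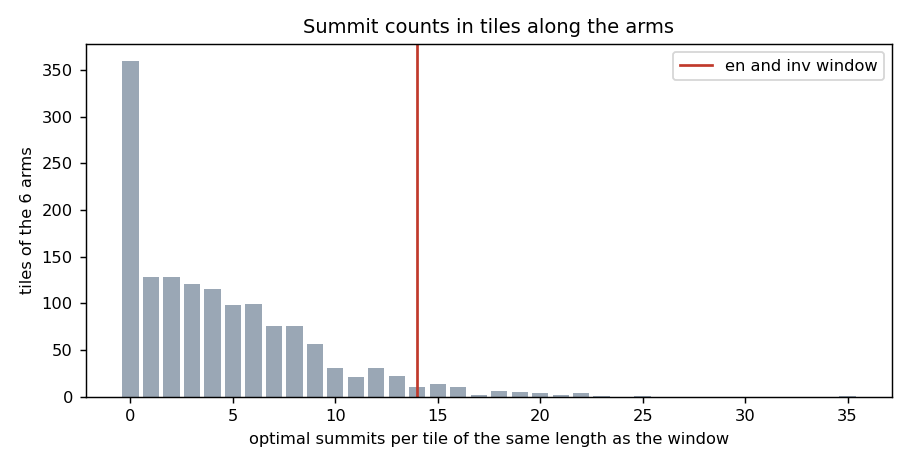
Number of optimal summits in each of 1425 tiles of 93746 bp along the 6 arms (x axis) and number of tiles (y axis), with the en and inv window at 14 marked by a line. The window, at a locus chosen for its peak ranks, lies in the upper tail, and some tiles hold more, up to 35.

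The stretch without an optimal summit ran over 31595 bp, from summit 9 in an intron of inv to summit 10 at the en promoter. It takes in the 3' part of inv, the sequence between the genes and the body of en. Distances this long or longer were common, at 15.1% of all distances between neighbouring optimal summits, whose median was 6584 bp. Of 211 convergent protein-coding neighbours with 10 kb or more between them, 70.6% also had no optimal summit there. The replicate lists held 27, 19 and 11 weak summits in the stretch in replicates 1, 2 and 3, each more than 100 bp from its ends. The best ranked 8870, 4713 and 9756, so only replicate 2 placed one among its 6221 highest peaks. Between the genes alone the replicates held 14, 9 and 4 of these weak summits.

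Beyond the window, the flanks differed. The nearest optimal summits outside it were at rank 6184, 22.5 kb from inv and at the promoter of E(Pc), and at rank 5424, 20.8 kb from en; the outermost members were at ranks 532 and 927, 4.85 kb from inv and 13.97 kb from en. From 20 to 50 kb beyond en 9 optimal summits were found in sequence with no annotated TSS, the best at rank 256, and 3 of them were among the 1244 highest peaks. From 20 to 50 kb beyond inv there were 4, the best at rank 2445, in sequence with TSSs of 5 genes. The whole interval from en to tou, 49.3 kb long, held 14 optimal summits, of which 7 were among the 1244 highest. The 20 kb flank thus takes in only some of the summits upstream of en.

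Short motifs were searched on both strands within 50 bp of each summit, namely CCAAT, the NF-Y box, GAGAG, the GAGA factor element, and GCCAT, the core of the Pho site. CCAAT was found at 4 of 14 summits, against 27.0% of all optimal summits and 38.5% of the 1244 highest. These were summit 5 at the inv promoter, 18 bp from the summit, summit 3 upstream of inv, 3 bp away, summit 8 in an intron of inv, 37 bp away, and summit 12 upstream of en, with 3 matches, the nearest 4 bp away. Neither summit 10 nor summit 11 at en had CCAAT, and the nearest lay 98 and 400 bp away. Within 50 bp, summit 5 thus had the motif and summits 10 and 11 did not. That difference rests on the window, since the peak of summit 10 held 1 CCAAT. The peak of summit 5 held 3, and that of summit 11 had none. The count of 4 of 14 is close to the share over all optimal summits.

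GAGAG was found at 6 of 14 summits, against 18.0% of all optimal summits and 28.9% of the 1244 highest. GCCAT was found at 6 of 14, against 18.9% of all, and its share among the 1244 highest was not computed. Of the other gene pairs compared below, gsb and gsb-n had GCCAT at 6 of 7 summits and tin and bap at 5 of 11. The rest had a lower share than the locus. GAGAG marked summits 1, 4, 5, 10, 11 and 14, including the strongest 4 of the locus, and GCCAT marked summits 1, 2, 3, 6, 8 and 11. Only summit 5 had both CCAAT and GAGAG, as did 5.34% of all optimal summits, and summits 7, 9 and 13 had none of the 3 motifs. Over the whole peak intervals, overlapping matches counted, the locus had 7.71 GAGAG per kb against 3.77 over all optimal peaks, while CCAAT was at 2.51 against 2.49. Of the 46 GAGAG matches at the locus, the peak at the en promoter held 18, a number that 0.563% of all optimal peaks reached. The peak at the inv promoter held 10. The GAGAG density of the locus thus rests largely on these 2 wide promoter peaks and is not spread evenly over its peaks. A motif match is a description of the sequence and does not show that a factor was bound.

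GC content within 50 bp of the summit was 53.5% in the median over the 14 summits, against 38.6% over all optimal summits and 48.5% over the 1244 highest. It ranged from 35.6% at summit 13 to 63.4% at summit 5. The whole window had 43.8% GC, against 42.2% over the arms, so the summits were richer in GC than the window they lay in. More than 50% GC was found at 8 of 14 summits, against 23.6% of all optimal summits and 44.2% of the 1244 highest.

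At the locus, the shift in rank between replicate 3 and the other replicates moved with GC content, a relation looked for after the ranks had been seen. Summits 1, 2, 5, 10 and 11, with 53.5% to 63.4% GC, stood higher in replicate 3 than by the geometric mean rank of the other replicates, and the other 9, with 35.6% to 56.4%, stood lower. The rank in replicate 3 over the geometric mean rank in replicates 1 and 2 was lowest at summit 5, at -1.27 on the log2 scale, and highest at summit 13, at 1.42. Over the 14 summits Spearman's rho of this log2 ratio with GC was -0.915, so summits rich in GC stood relatively higher in replicate 3. Over the 5346 optimal summits found in all 3 lists rho had the other sign, at 0.426, and it was 0.376 among those of the 1244 highest peaks. At 15 other gene pairs with 6 or more such summits it ran from -0.643 to 0.304, with a median of -0.0847. Strong and weak summits at the locus also differ in GC, and the part of GC, signal or the library of replicate 3 in this pattern was not tested.

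**Figure D4:**
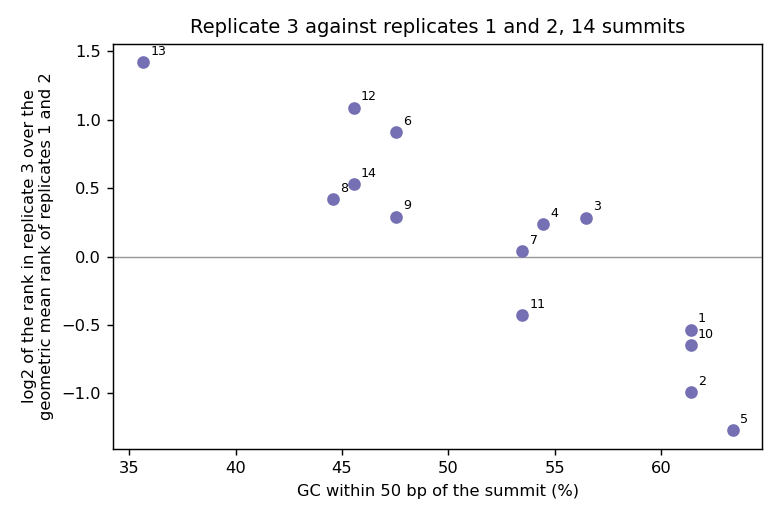
GC content within 50 bp of each of the 14 summits (x axis, %) and log2 of its rank in replicate 3 over the geometric mean of its ranks in replicates 1 and 2 (y axis; below 0 means a higher position in replicate 3). The points run downwards from summit 13 at 35.6% GC to summit 5 at 63.4% GC.

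The locus was set beside 17 other pairs of neighbouring genes that encode related regulators of development, each with 20 kb flanks. With 14.9 summits per 100 kb it was at place 9 of 18 by density, where the other pairs had a median of 13.0 and ran from 7.96 at kni and knrl to 40.3 at the Polycomb group pair Psc and Su(z)2. Many summits in a window were thus a feature it shared with these pairs. Counting only the 1244 highest peaks, it had 8.53 per 100 kb, place 2 of 18 after Psc and Su(z)2 at 15.9. The next pairs were close to it, with zen and zen2 at 7.83, tin and bap at 7.77 and slp1 and slp2 at 7.48. A promoter summit at both genes was found at 13 of the 17 other pairs. Median GC at the summits of en and inv was the highest of the 18 pairs, with gsb and gsb-n and tin and bap next at 51.5%. The GAGAG density of en and inv rested largely on their 2 promoter peaks. By GAGAG per kb the pair was at place 4, behind unc-4 and OdsH at 8.60, salm and salr at 8.39 and disco and disco-r at 8.15. These orders are descriptions, with 1 window per pair, and were not computed at other flanks. The windows also differed, from 51.1 kb at zen and zen2 to 139 kb at disco and disco-r. That of en and inv overlapped 3 protein-coding genes and that of tin and bap 31, whose promoters count in the densities.

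**Figure D5:**
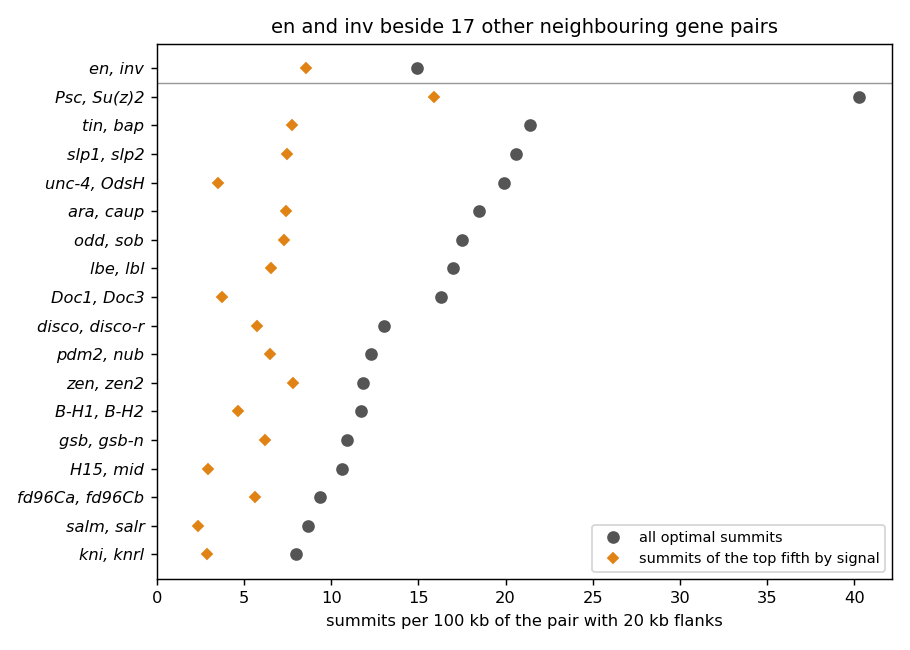
Optimal summits per 100 kb (circles) and those among the 1244 highest peaks per 100 kb (diamonds) for en and inv (top row) and 17 other neighbouring gene pairs (ordered by density), each over the span of the pair with 20 kb flanks. The en and inv window is in the middle of the pairs by all summits, at 14.9, and next to Psc and Su(z)2 by the highest peaks, at 8.53.

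Salm and salr were the only other convergent pair of the 17. They had 1 optimal summit in the 60674 bp between the genes, against 0 in the 14310 bp between inv and en.

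Protein-coding genes whose promoter summit was most like that of each member were sought by the sum of absolute log2 ratios of rank over the optimal list and the 3 replicate lists. For en, summit 10 served, and the closest of 2474 genes was oc, a head gap gene, with ranks 229, 278, 260 and 181 in the optimal list and replicates 1, 2 and 3 and a summed difference of 0.347. SREBP, slgA, hth and cad followed, with summed differences from 0.548 to 0.874. For inv, summit 5 served, and the closest were SoxN at 1.58 and caup at 1.79, followed by eyg, ap and Doc3 up to 2.42. SoxN, a Sox factor of the early nervous system, ranked 21, 29, 24 and 15.

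Genes that act with en and inv in segment polarity, or upstream of them, were asked for a promoter summit. Of 26 segment polarity genes 12 had one (46.2%), with a median rank of 1052 among them, against 21.6% of all protein-coding genes. The strongest were wg, the Wnt ligand of the neighbouring cells, at rank 102, gsb at 144, mid at 174 and gsb-n at 175. The hedgehog gene hh, which En maintains, had a summit 152 bp upstream of a TSS at rank 299, with ranks 275, 292 and 352 in replicates 1, 2 and 3. The inv promoter summit ranked above that of every segment polarity gene of the list, but the locus was chosen for that high rank. In the optimal list the en summits ranked between gsb-n and hh. That place did not hold in every replicate: summit 10 ranked below hh in replicate 1, and both en summits ranked above gsb-n in replicate 3, where gsb-n was at 229.

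Of 13 regulators and partners of en that were matched, 11 had a promoter summit (84.6%), against 21.6% of all protein-coding genes, with a median rank of 127. At 13 of the 17 other gene pairs both genes had one, so such a summit was not particular to this list. The lists were written with earlier results of these data known. The pair-rule genes opa, slp2, odd and eve led them, at ranks 1, 44, 54 and 65. Of 17 genes for factors of Polycomb response elements, 10 had one (58.8%), against the same 21.6%, with Psc, Su(z)2, ph-p and grh at ranks 3, 8, 426 and 910. Of Pho, Spps and the GAGA factor gene Trl, which are known to act through the elements of en, only Trl had a promoter summit, at rank 2363. These 3 were picked after the values were seen and do not stand for the list, where 10 of 17 had one.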

How the data were processed

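Peaks of 3 biological replicates were analysed, numbered as in the labels. Peak lists came from each replicate's alignment with 1 control alignment, and from the 3 alignments pooled, per the deposited readme texts. The optimal list was derived from those 4 lists and is named as thresholded on IDR, the irreproducible discovery rate. Coordinates are dm6, per the labels. The aligner, caller and threshold were not given in the sources used. The deposited lists give a signal value per peak, a score of the authors' own on a scale not stated, which served to rank peaks within a list or was divided by the list median. They also give a −log10 q-value, used only as another ranking, since 91.2% of the optimal peaks share the deposited maximum of 4.05. The other deposited number per peak is the summit offset. Read depth is unknown from these lists and no interval needing it was computed. Each replicate list and the pooled list hold 30000 peaks, and the optimal list holds the 6221 pooled peaks of highest signal, 163 of which repeat the interval of another.

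Positions are in dm6, counted from 1. Genes and TSSs came from Ensembl release 115, without transposable elements, on 6 arms (18164 genes, 13945 protein-coding). Sequence came from the RefSeq copy of the assembly, in which 99.8% of annotated start codons read ATG. Summits were taken as interval start plus offset, and matched to the nearest replicate summit within 100 bp. Tiles were laid from the start of each arm. Scripts in Python 3.11.15 with numpy and pandas were tested on simulated data. There is 1 group, so no test between groups was possible, and a comparison with the whole list is a description. Nothing in the labels pairs the replicates with other samples.

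The members, lists, gene pairs and tests were chosen with earlier results of these data known. Genes were named by a fixed rule: all genes with a TSS in the window, the 5 closest by rank profile for each member, the 4 strongest of each list, and wg and hh. Pho, Spps, Trl, the flanking genes and the pairs singled out were named after their values were seen. The symbol h matched no single gene and was left out. The lists hold genes only where the symbol matched 1 gene. Alternatives are given in the closing part.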

Additional observations from a re-analysis of the deposited data

Results flagged for a closer look

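The pooled list held 49 further summits at the locus, each over 100 bp from every optimal summit. Of these, 14 had a summit within 100 bp in all 3 replicate lists, and they were looked at because the optimal list leaves them out. The optimal list holds the 6221 pooled peaks of highest signal, so weaker pooled peaks are left out whatever their replicate matches. The 14 are 28.6% of the 49, against 20% (4747 of 23779) of such pooled summits over all arms, and no test was run on this difference. The best pooled rank of the 14 at the locus was 8527 of 30000. The best of them, at 11511606 between the genes, ranked 29946, 4713 and 12717 in replicates 1, 2 and 3. Of the 14, 8 lay in the stretch with no optimal summit between summits 9 and 10, and so did 21 of the 49. That stretch covers 31595 bp of the window of 93746 bp. The locus had 67.2 pooled summits per 100 kb, against 22.4 over the arms, and the part of this density in the matches was not tested.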

How the results depend on the processing

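Of 39 values recomputed under another setting, 34 stayed within 1.5 times the reported count or within 1 SD over replicates, and 5 moved. Some of the 34 could not have moved, as set out below. A flank of 50 kb gave 27 optimal summits and no flank gave 5, in place of 14; with no flank the density was 9.30 per 100 kb in place of 14.9. Ranked by −log10 q, the strongest summits of en and inv both had the mean rank of a tie, 2836, since all 14 summits share the highest value of the list; that ranking thus gives no order at the locus. Leaving out each replicate in turn left 14 summits found in both others, as it had to, since all 14 matched in all 3 lists. A wider match of 200 bp could not lower that count either. With 1 replicate left out, the median replicate rank ran from 204 to 246 for summit 11 and from 18 to 26.5 for summit 5. The median of 2 of 3 ranks always lies within 1 SD of the median of 3, so these values could only stay. CCAAT was found at 3 to 6 summits and GAGAG and GCCAT each at 4 to 7 in windows of 25 to 100 bp. The count of 6 for CCAAT at 100 bp, and those of 4 for GAGAG and GCCAT at 25 bp, lie just at the limit of 1.5 times. Shares over all optimal summits were computed at 50 bp only, so counts at the other windows have no background beside them. The GCCAT windows and the list counts in each replicate's highest peaks were added after seeing the data. No paired analysis was possible because there is 1 group. The scale of the signal value and the read depth are unknown, which limits what a low rank in 1 replicate shows.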
